A study of Mus musculus with 39 samples.

Results

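Binding sites of the glucocorticoid receptor (GR) called in cells that received no hormone were compared between 7438 Afos cells and the 7438 cells they are set against. The sites were those of 3 lists, the 2 untreated GR lists of 7438 Afos and the 1 GR list of 7438 whose name says untreated, out of 24 lists in the series with 110608 sites in all. The untreated lists held 95 sites in 7438 Afos replicate 1, 315 in 7438 Afos replicate 2 and 143 in 7438. Merging sites that overlapped gave 402 regions, of which 343 occurred in 7438 Afos.

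7438 cells are mouse mammary cells that carry GR fused to GFP and the estrogen receptor (ER) fused to Cherry, both driven by a tetracycline-regulated promoter. 7438 Afos cells carry Afos under such a promoter as well. Every culture was plated 48 h before the experiment in medium with charcoal-dextran serum and tetracycline, and tetracycline was withdrawn 24 h before treatment. Untreated cells received no hormone, and the other cells used here received 100 nM dexamethasone (Dex), 100 nM estradiol (E2) or both for 30 min. Chromatin was immunoprecipitated with a cocktail of GR antibodies or with ER antibody and sequenced. The labels do not say whether replicates are separate cultures, whether each line is 1 clone or whether the cells keep receptors of their own. No deposited file gives the level of GR, ER or Afos.

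One conflict precedes every result for 7438. The list whose name says untreated is filed under a sample labelled as treated with Dex and E2, and the sample labelled untreated holds a list of 9503 sites whose name says Dex+E2. The ER lists of 7438 carry the same exchange. Names were followed here, so "the 7438 untreated list" stands for the list named untreated, and the label reading is given where it moves a result.

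GR is the receptor of glucocorticoid hormones. Without hormone it is held largely in the cytoplasm by chaperones, and a ligand such as Dex sends it to the nucleus, where it binds regulatory DNA. ER is the receptor of estradiol and is largely nuclear even without it. AP-1, a dimer of Fos and Jun proteins, helps to keep chromatin accessible at many GR sites in mammary cells. The labels do not explain Afos; A-Fos is the usual name of a dominant-negative protein that pairs with Jun and keeps AP-1 off DNA.

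Few GR sites were called without hormone in either line. With Dex the 7438 Afos lists held 8873 and 5136 sites and the 7438 list held 12084. A site carries its highest tag density, a signal of the authors whose scaling is not stated. The median of this signal was 13.4 in 7438 Afos replicate 1 (range 0.583 to 45.6), 8.93 in replicate 2 (0.926 to 25.8) and 12.1 in the 7438 untreated list (10.0 to 43.0). The lists were not made alike. Every 7438 site was 150 bp wide with a density of at least 10, whereas untreated 7438 Afos sites were at least 251 bp wide and 24 of 95 and 189 of 315 of them had a density under 10. Site strength is therefore given as rank or percentile within a list, 100 being the strongest site, and list lengths were not compared between lines. With 2 lists against 1 no permutation test over samples can give a two-sided p below 0.667, so shares carry exact (Clopper-Pearson) 95% intervals, which cover counting error only, and no test is given.

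The longer 7438 Afos list contained most of the shorter one. Of the 95 sites in replicate 1, 67 (70.5%, 60.3 to 79.4) overlapped a site of replicate 2, while 65 of the 315 sites in replicate 2 (20.6%) overlapped replicate 1. Sites in both lists numbered 65 after merging, and 278 regions occurred in 1 list. The overlapping sites sat at nearly the same place, with a median of 29 bp between their centres.

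The 7438 untreated list and the 7438 Afos lists shared 83 regions. Of the 143 sites in 7438, 84 (58.7%, 50.2 to 66.9) were called in at least 1 untreated list of 7438 Afos, 38 of them in replicate 1 and 81 in replicate 2. Of all 12084 Dex sites of 7438, 1.91% were called in those lists. In the other direction, 83 of 343 untreated regions of 7438 Afos (24.2%, 19.8 to 29.1) were in the 7438 untreated list, against 1.14% of all Dex regions of 7438 Afos. The share was 35 of 65 (53.8%, 41.0 to 66.3) for regions in both 7438 Afos lists and 48 of 278 (17.3%, 13.0 to 22.2) for regions in 1 list. These intervals cover counting error over regions only, and the difference was not tested. The share for regions in both lists was 31.0% (18 of 58) when sites with untreated ER in their own line were left out. That setting also took 55 of the 143 sites out of the 7438 list, so fewer sites were left to overlap. The whole of replicate 2, with replicate 1 left out, stood at 25.4%. By the label reading, 75.4% of the 65 regions were in the 9503-site list, and 2.28% of that list was called in untreated 7438 Afos.

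**Figure D1:**
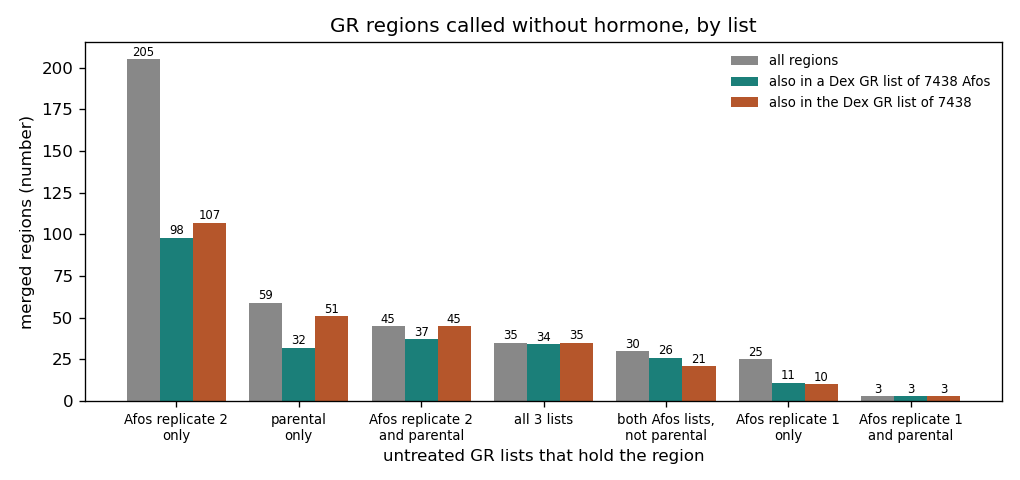
Number of merged regions (vertical axis) in each combination of untreated GR lists (horizontal axis), with grey bars for all regions and coloured bars for those also in a Dex GR list of 7438 Afos or of 7438. Replicate 2 of 7438 Afos alone held 205 of the 402 regions, and all 35 regions in the 3 lists were in the Dex list of 7438.

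All 3 lists held 35 regions, both 7438 Afos lists without 7438 held 30, and 7438 alone held 59. Replicate 2 alone held 205 regions and replicate 1 alone 25, while 45 regions were in replicate 2 and 7438 and 3 in replicate 1 and 7438.

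Sites called in both lines were the stronger ones of the 7438 Afos lists. The median percentile was 66.8 for the 38 replicate 1 sites shared with 7438 and 36.8 for the other 57. In replicate 2 it was 82.4 for the 80 shared sites and 37.5 for the other 235. The 7438 list showed a smaller gap, 53.0 for 84 shared sites and 40.9 for the other 59. At a density of at least 10, 37 of 71 sites of replicate 1 (52.1%) and 66 of 126 of replicate 2 (52.4%) were in the 7438 untreated list. Below 10 the shares were 1 of 24 (4.17%) and 14 of 189 (7.41%). The 2 replicates thus gave nearly the same share above the lowest density of the 7438 list. That cutoff took in 71 of 95 sites of replicate 1 but 126 of 315 of replicate 2. As the scaling is not stated, it may not mark the same strength in each list.

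**Figure D2:**
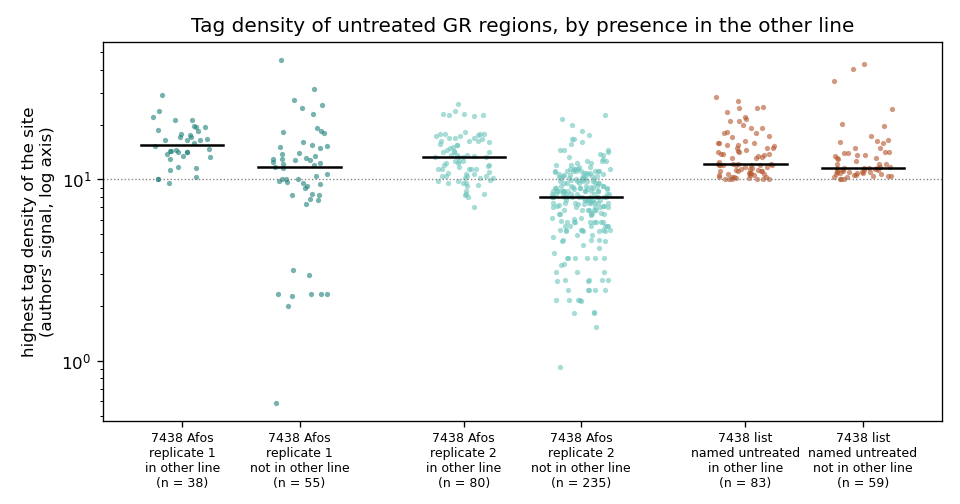
Highest tag density of each region (vertical log axis, authors' signal) in the 3 untreated GR lists, split by presence in an untreated list of the other line; points are regions, black lines medians and the dotted line the lowest density of the 7438 list. In replicate 2 the 235 points not in the other line reach down to 0.926, while the 80 shared points start at 7.06.

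The regions in all 3 lists were ranked by mean percentile, and the leading 5 are given first. Coordinates here and below are those of mouse build mm9 as the lists give them. The region chr12:33866541-33867324 ranked 3 of 95, 1 of 315 and 5 of 143, with densities of 29.1 and 25.8 in the 2 replicates of 7438 Afos and 26.9 in 7438. The density at chr4:59327744-59328950 was 21.3, 22.4 and 28.3, and at chr12:51068927-51069612 it was 23.6, 23.7 and 20.0, in the same order of lists. At chr17:75655164-75655845 it was 19.6, 17.2 and 25.1, and at chr15:62159820-62160474 it was 19.3, 16.6 and 21.4. These 5 regions ranked between 1 and 24 in every untreated list.

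Regions in both 7438 Afos lists and not in 7438 were led by chr8:123449875-123450600, with densities of 24.6 and 16.6. With hormone it was a GR site of 7438 too: it ranked 354 of 12084 in the Dex list with a density of 160, and it was in the E2 GR list at 58.0. The second, chr15:74915814-74917146, had densities of 18.3 and 19.9 and was in 17 of the 24 lists, 9 of them ER lists, but not in the Dex list of 7438. The others were chr3:58006567-58007281 (19.1 and 12.9), chr1:91004748-91005415 (22.8 and 11.3) and chr19:4992724-4993349 (17.9 and 12.6).

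The 3 strongest sites of the 7438 untreated list were called in neither untreated 7438 Afos list. They were chr1:12634776-12634926 with a density of 43.0, chr14:104736077-104736227 with 40.3 and chr5:114623119-114623269 with 34.8. All 3 were called in a Dex list of 7438 Afos. The first ranked 8182 of 8873 and 4669 of 5136 and the second 8725 and 4905, near the lower end, while the third was in replicate 2 alone at rank 3897. In 7438 their Dex densities were 31.9, 32.6 and 26.0, each below the untreated value of the same site as deposited, and their Dex ranks were 3720, 3616 and 4670. The next in this class were chr4:88696028-88696178 at 24.3, with a Dex density of 54.9, and chr2:126135886-126136036 at 20.3, which was in no list of 7438 Afos.

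Untreated GR sites of 7438 were nearly all Dex sites as well. The Dex list of 7438 held 134 of the 143 (93.7%, 88.4 to 97.1). In 7438 Afos, 209 of 343 untreated regions (60.9%, 55.5 to 66.1) were in at least 1 Dex list and 133 (38.8%) were in both. Replicate 1 reached 76 of 95 (80.0%) and replicate 2 reached 195 of 315 (61.9%). For comparison, 50.6% of the 326 E2 GR sites of 7438 were in its Dex list, and 14.1% of the 511 E2 GR regions of 7438 Afos were in a Dex list of that line. By the label reading, 81.1% of the 9503 sites were in the Dex list of 7438.

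Presence with Dex followed sharing and strength. All 83 regions called untreated in both lines were in the Dex list of 7438, and 74 (89.2%, 80.4 to 94.9) were in a Dex list of 7438 Afos. Among the 260 regions called untreated in 7438 Afos and not in 7438, 135 (51.9%, 45.7 to 58.1) were in a Dex list of 7438 Afos, and 96 (36.9%) were in no Dex list of either line. Of the 59 regions called in 7438 alone, 51 (86.4%) were in its Dex list and 32 (54.2%) in a Dex list of 7438 Afos. The 7438 Afos sites missing with Dex had a lower median density, 7.80 against 14.1 for the others in replicate 1 and 7.14 against 10.1 in replicate 2. Some of them were strong even so, up to 31.4 (rank 2 of 95) in replicate 1 and 21.4 (rank 9 of 315) in replicate 2. In 7438 the 9 sites missing with Dex had the same median, 12.1, as the 134 that were present. At a density of at least 10, 64 of 71 sites of replicate 1 (90.1%) and 103 of 126 of replicate 2 (81.7%) were in a Dex list of 7438 Afos.

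The rank of these sites among Dex sites differed between the lists. The Dex lists were not made alike either. In 7438 Afos 1140 of 8873 and 724 of 5136 Dex sites had a density under 10, against 0 of 12084 in 7438. The same percentile can therefore stand for an unlike strength in each line. The 134 sites of 7438 had a median Dex percentile of 76.0, with 87.3% in the upper part of the list above percentile 50 and 19.4% in its top decile. In 7438 Afos the median percentile of replicate 1 sites was 67.5 in Dex replicate 1 (73 sites found) and 54.8 in Dex replicate 2 (59 found). For replicate 2 sites it was 53.0 (186 found) and 47.0 (134 found), close to the 50 that any Dex site has on average. Over merged regions, each taken at the mean of its percentiles in the Dex lists that held it, the median was 44.3 for the 209 regions found. Sites also called in the other line ranked higher. In Dex replicate 1 their medians were 76.2 and 60.7 for the untreated replicates 1 and 2, against 53.5 and 46.2 for sites not shared. In 7438 the shared sites stood at 77.5 and the others at 69.3.

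**Figure D3:**
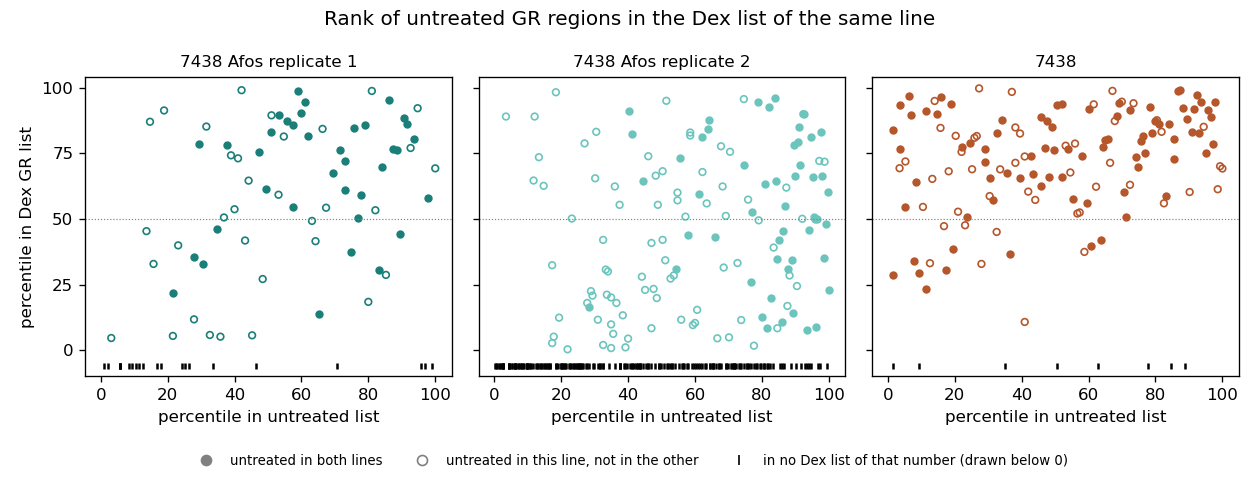
Percentile of each untreated GR region in the Dex GR list of the same line and number (vertical axis) against its percentile in the untreated list (horizontal axis); filled points are regions called untreated in both lines, open points in the line shown and not in the other, and ticks below 0 regions missing from that Dex list. In 7438 most points lie above the dotted line at 50, whereas in replicate 2 of 7438 Afos they spread over the whole height.

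Strength without hormone gave little of the strength with Dex. Across sites, Pearson's r between untreated and Dex percentile was 0.342 and 0.410 for replicate 1 in the 2 Dex lists, 0.157 and 0.145 for replicate 2, and 0.320 for 7438. Sites of 1 list share its library and are not independent, so these values describe the lists. The strongest untreated region in all 3 lists, chr12:33866541-33867324, ranked 3736 of 8873 and 3959 of 5136 in the Dex lists of 7438 Afos and 2592 of 12084 in that of 7438. In contrast chr15:62159820-62160474, of lower untreated rank, ranked 405, 518 and 348.

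At the head of the Dex lists untreated calls were few, as they were in these lists as a whole. Of the 10 strongest Dex sites 0 had an untreated call in their line, of the 100 strongest 1 did in each of the 3 Dex lists, and of the 1000 strongest 17 and 22 did in 7438 Afos and 22 in 7438. The regions with the highest Dex ranks were picked after their values were seen. In 7438 it was chr4:32657080-32657230, with a density of 11.0 untreated and 466 with Dex, rank 33. In 7438 Afos it was chr3:81171892-81172363, with 12.5 and 5.54 in the untreated lists and 169 and 103 in the Dex lists, ranks 85 and 90. Without hormone the first ranked 105 of 143, and the second ranked 56 of 95 and 257 of 315, so neither was among the leading untreated sites.

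Counted from the side of the Dex lists, 1.12% of the 12084 sites of 7438 had an untreated call, as did 2.24% and 2.78% of the sites in the 7438 Afos lists. In 7438 this share rose with Dex strength, from 0 of 1218 in the weakest decile (exact upper bound 0.302%) to 2.15% (1.41 to 3.14) in the strongest. In 7438 Afos it was 1.45% in the weakest and 1.69% in the strongest decile of Dex replicate 1, and 3.68% and 1.75% in Dex replicate 2, with overlapping intervals. When untreated 7438 Afos sites had to meet the lower limits of the 7438 list, the shares in the weakest and strongest decile became 0.335% and 0.901% in Dex replicate 1, and 1.35% and 0.777% in Dex replicate 2. The Dex lists themselves were not limited in this way. The weakest decile of both 7438 Afos Dex lists lay below the lowest density of the 7438 Dex list, 10.0. Median widths of Dex sites were 598 and 570 bp in 7438 Afos against 150 bp in 7438, so deciles are not alike between lines.

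**Figure D4:**
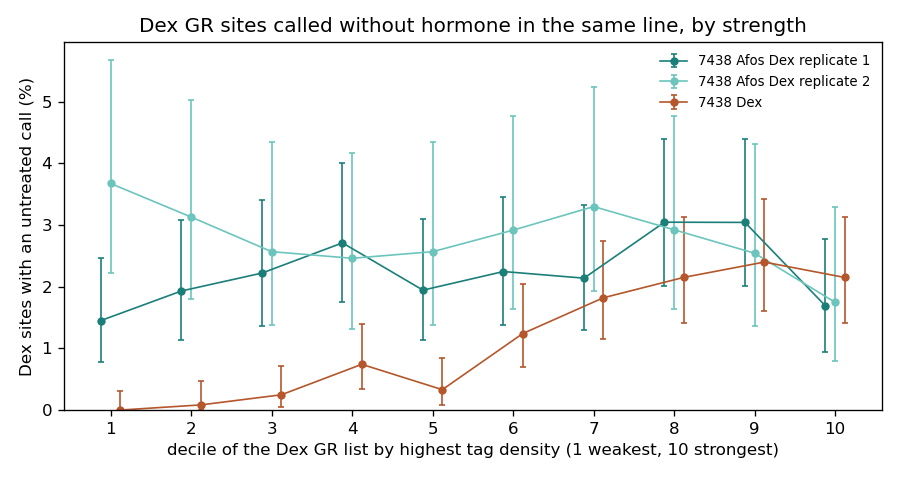
Share of Dex GR sites that also had an untreated call in the same line (vertical axis, percent) by decile of the Dex list (horizontal axis, 1 weakest, 10 strongest), with exact 95% intervals as bars. The 7438 line climbs from 0 to 2.15%, while the 7438 Afos lines run between 1.45% and 3.68% without such a climb. The Dex lists of the lines were not made alike, so their deciles cover unlike densities.

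Untreated GR sites were found in ER lists more often than all Dex GR sites were, except in the Dex+E2 lists of 7438 Afos. In 7438 the ER list named untreated held 55 of the 143 (38.5%, 30.5 to 47.0), against 1.85% of all Dex GR sites. The E2 list held 80 (55.9%, 47.4 to 64.2) against 9.85%, and the list named Dex+E2 held 85 (59.4%, 50.9 to 67.6) against 24.9%. The Dex list of ER, with 10149 sites, held 11 (7.69%, 3.90 to 13.3) against 1.94%. Among the strongest decile of Dex GR sites of 7438, the shares in the ER lists were 2.65% (untreated), 6.37% (Dex), 15.7% (E2) and 65.0% (Dex+E2). Untreated GR sites stood well above these shares in the untreated and E2 lists, whereas their intervals for the Dex and Dex+E2 lists included them. By the ER labels alone, the untreated share would be 59.4% and the Dex+E2 share 38.5%. By the GR label alone, 2.23% of the 9503 sites were in the ER list named untreated. With the labels of both receptors followed, the untreated ER list is the one named Dex+E2. It held 4469 of the 9503 sites (47.0%).

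In 7438 Afos the shares were lower than in 7438 for the untreated, E2 and Dex+E2 lists of ER. For the Dex lists of ER they were similar, but from lists of 61 and 41 sites in 7438 Afos against 10149 in 7438. At least 1 untreated ER list held 28 of the 343 regions (8.16%, 5.49 to 11.6), against 0.189% of all Dex GR regions of that line. Many of the 28 lay within 10000 bp of one another. Clusters at chrX:123299787, chr8:72095836, chr17:39979878 and chr16:3243027 held 5, 3, 3 and 2 of them. The interval counts each region as separate, and the chr17 cluster holds a 3515 bp wide site that may be repeated sequence. Dex lists of ER held 29 (8.45%) against 0.277%, and E2 lists held 63 (18.4%, 14.4 to 22.9) against 5.26%. In the Dex+E2 lists of ER the 57 regions (16.6%, 12.8 to 21.0) stood level with the 16.5% of all Dex GR regions. In the strongest decile of Dex replicates 1 and 2, the shares in untreated ER lists were 0% and 0%. With Dex they were 0.225% and 0.388%, with E2 11.4% and 13.0%, and with Dex+E2 48.2% and 51.7%. Untreated GR regions stood above this decile in all but the Dex+E2 lists, where they stood well below it. Replicate 2 supplied most regions, and without it the shares were 13.7% (untreated), 14.7% (Dex), 33.7% (E2) and 26.3% (Dex+E2). Counting only regions present in both ER lists of a treatment, the shares were 3.50%, 3.79%, 11.1% and 8.45% in that order. The ER lists themselves were short without E2 in 7438 Afos, at 35 and 49 sites untreated and 61 and 41 with Dex, and how their lengths bear on the difference between lines was not tested.

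**Figure D5:**
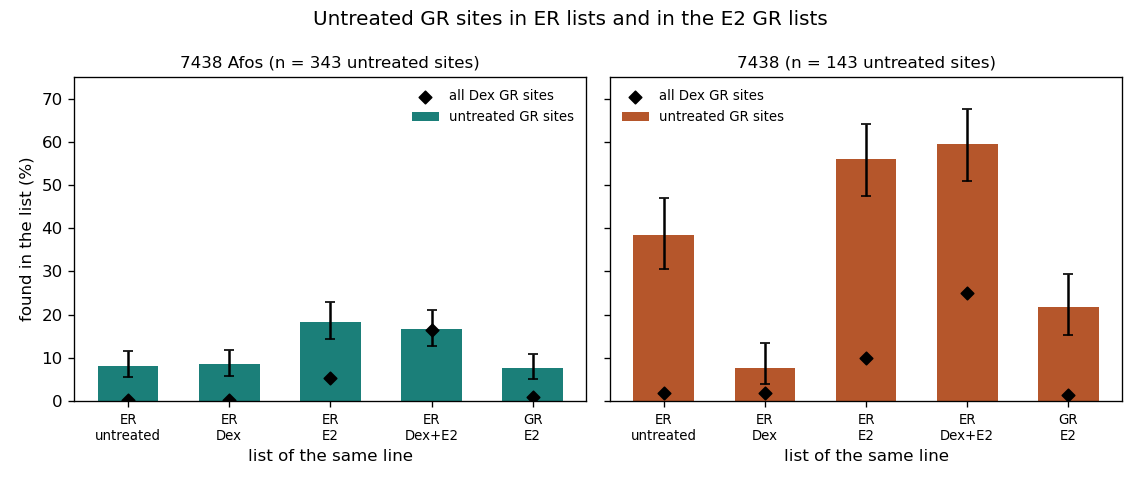
Share of untreated GR sites (bars, with exact 95% intervals) and of all Dex GR sites (diamonds) found in each ER list and in the E2 GR lists of the same line (horizontal axis), for 7438 Afos and 7438. Bars exceed diamonds except at the Dex+E2 ER lists of 7438 Afos, where both are near 16.5%.

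No region of the 7438 untreated list, shared by the lines or not, was in an untreated ER list of 7438 Afos. Of the 83 regions called untreated in both lines, 0 were in such a list (exact upper bound 4.35%). Of the 59 called in 7438 alone, also 0 were (6.06%), against 28 of all 343 regions of 7438 Afos (8.16%). Of all Dex GR regions of 7438 Afos, 0.189% were in these ER lists, which held 35 and 49 sites. Counts of 0 are thus near the share of Dex GR regions at large. The untreated ER list of 7438 held 30 (36.1%) of the 83 and 26 (44.1%) of the 59. All 28 regions with untreated ER in 7438 Afos came from the 260 not called in 7438. E2 lists of ER held 13 (15.7%) of the 83 shared regions in 7438 Afos and 50 (60.2%) in 7438.

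A large share of the few untreated ER sites of 7438 Afos were untreated GR sites. Of these ER sites, 15 of 35 (42.9%) and 24 of 49 (49.0%) were in an untreated GR list of the line, as were 25 of 61 and 16 of 41 ER sites with Dex. In the E2 lists of ER it was 0.711% and 1.09%. The corresponding share in 7438 was 55 of 373 untreated ER sites (14.7%) and 1.14% of the E2 sites.

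The strongest regions with both receptors in untreated cells are given here by line. In 7438 Afos replicate 1 the highest density of the list, 45.6, fell on chr17:39979878-39983393, where the untreated ER list of replicate 2 had 51.6 and the ER lists with Dex had 48.1 and 45.0. It was in all 6 ER lists with hormone, with densities of 33.5 to 59.5, and in no list of 7438. This site was 3515 bp wide. No mm9 repeat annotation was used, so binding there and reads from repeated sequence cannot be told apart. Its neighbour chr17:39984844-39985733 had 31.4 for GR and 33.3 for ER in untreated cells and was in no Dex GR list. In 7438 the leading ones were chr14:104736077-104736227, with 40.3 for GR and 12.7 for ER, and chr5:114623119-114623269, with 34.8 and 18.3. At chr12:33866541-33867324 the untreated densities in 7438 were 26.9 for GR and 14.7 for ER, and the E2 list of ER had 65.4.

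Within 7438, sites with untreated ER were the stronger GR sites. The 55 sites had a median density of 14.0 and a median Dex percentile of 81.7, and 54 were in the Dex list. For the 88 sites without untreated ER the medians were 11.6 and 69.1, and 80 were in the Dex list. Untreated 7438 Afos lists held 29 of the 55 (52.7%) and 55 of the 88 (62.5%). No ER list of 7438 held 38 of the 143 sites.

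A total of 142 regions were in no Dex GR list of a line in which they were called untreated. Besides the chr17 neighbour above, the highest were chr8:19938834-19939130 (21.4, replicate 2), chr16:57391440-57391940 (27.2, replicate 1), chr8:19688108-19688466 (18.5, replicate 2) and chr11:108872808-108873568 (25.7, replicate 1). All 5 were in 1 untreated list of 7438 Afos. Each was also in an ER list of 7438 Afos, and the chr17, chr16 and chr11 regions were in its untreated ER list of replicate 2, with densities of 33.3, 21.1 and 30.0. The chr17 and chr16 regions were in 7 ER lists each, all of 7438 Afos. The chr11 region was in 8, among them the Dex ER list of 7438. These 3 were thus called with either antibody and with or without hormone. Binding and reads from repeated sequence cannot be told apart there. Among the 5 leading regions in 1 untreated list of 7438 Afos, those with a Dex site were chr17:39979878-39983393, at rank 2727 of 8873, and chr8:19686190-19686683 (22.6, replicate 2), at rank 1449 of 5136.

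Some untreated sites were also GR sites with E2 alone. E2 GR lists held 31 of the 143 sites of 7438 (21.7%, 15.2 to 29.3) against 1.37% of its Dex GR sites, and 26 of the 343 regions of 7438 Afos (7.58%, 5.01 to 10.9) against 0.81%. Of the 83 regions shared by the lines, 2 were in an E2 GR list of 7438 Afos.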

How the data were processed

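GR and ER ChIP-seq lists of 7438 and 7438 Afos cells were used as deposited, 24 lists of 39 samples; second replicates of 7438, inputs and libraries of a mutated ER were not analysed here. The submitters' processing notes name build mm9 and CASAVA 1.8; the sources used here do not give the aligner, peak caller, control or threshold. Per the file headers, each site carries a highest and an average tag density (signal) and a z-score (score), and the 7438 Afos lists also a deposited p-value, not used in any result. Depth per sample is unknown, so precision is given only as counting error. Groups came from the labels, except that the 7438 lists were read by their names.

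Sites were shared at an overlap of at least 1 bp. Regions are merged overlapping sites, a region present in several sites of a list taking the strongest. Shares of Dex sites or regions of the same line are the background. The named regions are the 5 of highest mean untreated percentile in each of 6 classes: all 3 lists, both 7438 Afos lists and not 7438, 7438 only, 1 7438 Afos list only, no Dex GR list of the line, and an untreated ER list of the line. Regions, lists and alternatives were chosen with earlier results of these data known. Alternatives were a 50% overlap, a stricter density, the limits of the 7438 list, each replicate left out, presence in both lists, same-numbered lists, equal list lengths and the label reading; leaving out sites with untreated ER was chosen after seeing the data. Overlap code was tested on simulated data. Python 3.11.15, NumPy 2.4.6, SciPy 1.17.1, pandas 2.3.3 and matplotlib 3.10.9 were used. No genome or annotation of build mm9 was used, so no gene or sequence is given.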

Additional observations from a re-analysis of the deposited data

How the results depend on the processing

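Of 87 alternatives over 15 results, 50 moved a value by less than its spread and 37 by more, the spread being the SD between the 2 replicates for 7438 Afos, the counting interval for 7438 and 1.5 times for the number of regions; the cause was not tested. The number of regions in both untreated lists of 7438 Afos (65) became 35 at or above the median density, 25 with the limits of the 7438 list and 43 with equal list lengths. With 1 replicate left out no overlap can be counted, and the values 95 and 315 are only the lengths of the remaining lists. The share of the 65 regions in the 7438 untreated list (53.8%) became 68.6%, 72.0% and 67.4% (median density, limits, equal lengths), and 75.4% by the label. It was 31.0% without untreated ER sites, a setting added after seeing the data that also shortened the 7438 list from 143 to 88 sites. With 1 replicate left out, the share is that of the whole remaining list, 40.0% for replicate 1 and 25.4% for replicate 2. The share of the 7438 untreated list called in 7438 Afos (58.7%) became 43.4% with the limits of the 7438 list, 26.6% to 56.6% with 1 replicate left out and 2.28% by the label. Presence of 7438 Afos regions with Dex (60.9%) became 77.1% at the median density, 86.5% with the limits, 38.8% when both Dex lists were required, and 61.9% to 80.0% with 1 replicate left out. The same share in 7438 (93.7%) became 81.1% by the label. The median Dex percentile in 7438 Afos (44.3) became 57.3 with a replicate block, that is with same-numbered lists paired, and 42.8 to 57.8 with 1 replicate left out. In 7438 (76.0) it became 80.4 at the median density, 67.4 by the label and 69.1 without untreated ER sites. With 1 replicate left out, 7438 Afos shares were 6.67% to 13.7% in untreated ER lists 6.98% to 14.7% (Dex), 16.2% to 33.7% (E2) and 14.9% to 26.3% (Dex+E2). Presence in both ER lists gave 3.50%, 3.79% and 11.1% (untreated, Dex, E2; within the SD between replicates, which is wide) and 8.45% (Dex+E2). Shares of 7438 at the median density were 54.2% (untreated ER) and 68.1% (Dex+E2). By the GR label alone, with ER lists by name, they were 2.23%, 2.10%, 24.5% and 47.0% (untreated, Dex, E2, Dex+E2). By the ER labels alone they were 59.4% (untreated) and 38.5% (Dex+E2). With the labels of both receptors followed, the untreated share was 47.0% and the Dex+E2 share 2.23%.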

Other observations

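Some untreated regions lay close together. Within 10000 bp of one another, 71 of the 402 regions formed 31 clusters. The largest spanned chrX:123299787-123308019 and held 6 regions, all called in 7438 Afos and none in 7438, of which 5 were in an untreated ER list of 7438 Afos. A group of 4 lay in chr8:72095836-72108122 (3 with untreated ER in 7438 Afos), and 3 each in chr16:3243027-3247580, chr17:39979878-39985733 and chr2:125119581-125130925. The chr17 cluster holds the 3515 bp wide site described above, and whether any cluster lies in repeated sequence was not tested. In the first 4 of these 5 clusters every region came from 7438 Afos and none from 7438. The region present in most lists, 19 of 24 and picked after its values were seen, was chr19:36203588-36204192, with untreated GR densities of 22.1 and 15.6 in 7438 Afos and 13.9 in 7438, and it was in no ER list of 7438 Afos without E2. At the other end, 57 untreated regions of 7438 Afos and 4 of 7438 were in no other list.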
